A study of Mus musculus with 16 samples.

Results

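Bone marrow-derived macrophages given the IKK2 inhibitor TPCA-1 before TNFα were compared with unstimulated macrophages given DMSO, to see which genes kept the level that TNFα alone produced, which returned to the unstimulated level and which went below or above it. The members are 8 of the 16 RNA sequencing libraries of the series: TPCA-1+TNFα replicates 1 to 4 and DMSO replicates 1 to 4, chosen by their labels. The cells came from mice with the strain label C57BL/6J and the genotype label B6.129P2-Apoetm1Unc/J, a line that lacks apolipoprotein E, so the control cells carry the deletion too. The TPCA-1+TNFα cells received 500 nM TPCA-1 for 1 h and then 50 ng/ml TNFα for 24 h. The 4 TNFα libraries, from cells stimulated in the same way without an inhibitor, gave the direction and size of the TNFα change. The 4 TMP195+TNFα libraries, from cells given 5 µM of the class IIa histone deacetylase inhibitor TMP195 for 1 h before TNFα, entered the same model. Nothing in the labels tells whether replicates are different animals or different cultures, so each p-value reflects only how much these libraries vary, and that variation may be technical. They do not say whether the cells given TNFα alone also received DMSO. No group received TPCA-1 without TNFα, so an effect of TPCA-1 on resting cells cannot be told apart from its effect on the TNFα response.

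TNFα binds its receptors on the macrophage surface and assembles a complex of adaptor proteins and ubiquitin ligases that activates the IκB kinase (IKK) complex. Its catalytic subunit IKK2, encoded by Ikbkb, phosphorylates the inhibitor IκBα, which is then degraded and frees NF-κB dimers to enter the nucleus and activate chemokine, cytokine, adhesion and feedback genes. A second, noncanonical branch runs through the kinase NIK (Map3k14) and IKK1 (Chuk) and does not need IKK2. TPCA-1 is a small molecule that inhibits IKK2. Macrophages also hold a basal set of interferon-stimulated genes, which low, self-produced interferon maintains.

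Library depth and quality set 1 library apart. Counts on genes came to 7.49 in units of 1e6 in TPCA-1+TNFα 2 and to 18.6 to 31.6 in the other 15 libraries. In TPCA-1+TNFα 2, 44.0% of the reads were unmapped, against 4.003% to 7.11% elsewhere, and 14870 genes had a count, against 17059 to 18244. A floor of 3 counts equals 0.401 counts per 1e6 counted reads (CPM) in that library and at most 0.162 CPM in the others, and this floor covers counting error only. Counts are therefore given with and without TPCA-1+TNFα 2, and named genes whose call ended without it are said to do so. Apoe lay between 0.0486 and 0.468 CPM in all 16 libraries, too low to test.

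The macrophage label was checked against 8 defining markers, and all were expressed in every library. In DMSO the lysozyme gene Lyz2 stood at 13162 ± 2775 CPM, Adgre1, which encodes F4/80, at 4916 ± 766 CPM, and Cd68 at 2226 ± 249.9 CPM (SD, n = 4). Adgre1 stood at 6360.2 ± 851 CPM in TPCA-1+TNFα (log2 difference 0.37 ± 0.14, adjusted p = 0.0587), a difference that passed the threshold without TPCA-1+TNFα 2 (0.45 ± 0.14, adjusted p = 0.0271) or without DMSO 4. The lineage factor gene Spi1 stood at 385 ± 54.5 and 456 ± 29.7 CPM (0.24 ± 0.11, adjusted p = 0.118), and passed without DMSO 4. The markers Fcgr1, Cd68 and Itgam fell and are described with the macrophage genes. In bulk samples fewer cells of a type and less RNA per cell cannot be told apart.

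In TPCA-1+TNFα 1871 of the 12612 genes tested were higher than in DMSO (14.8%) and 1949 were lower (15.5%). Of these, 581 were higher by at least 2-fold (4.61%) and 876 were lower by at least 2-fold (6.95%). A gene was called by edgeR's quasi-likelihood test at a Benjamini-Hochberg adjusted p under 0.05. Changes below are given as log2 fold changes with their SE (4 libraries per group), with levels in CPM. Without TPCA-1+TNFα 2 the test called 1555 genes higher and 1771 lower, and 3118 of the 3820 calls were shared in the same direction. When the fit without that library also took the replicate number as a term, it called 2670 higher and 2705 lower. It then shared 3758 of the 3820 calls. Against the same DMSO libraries, TNFα alone raised 1377 genes (10.9%) and lowered 1568 (12.4%), of which 523 (4.15%) and 719 (5.7%) changed at least 2-fold. Same-numbered replicates of TNFα and DMSO deviated together, so where a fit with the replicate number as a term (the replicate block) changes a call of TNFα against DMSO, or a count or class resting on it by over 1.5 times, its value is given too. Against TNFα alone, 1220 genes were higher (9.67%) and 1226 lower (9.72%) in TPCA-1+TNFα. The median change over all genes tested was 0.01 with TPCA-1+TNFα.

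The rising genes with the largest changes from DMSO, within the filters for named genes, were the chemokine genes Cxcl3 (6.43 ± 0.48), Cxcl2 (4.38 ± 0.24) and Cxcl1 (4.29 ± 0.65), Lad1, which encodes ladinin (5.96 ± 0.95), the calprotectin subunit gene S100a8 (4.37 ± 0.39), the procollagen protease gene Bmp1 (4.22 ± 0.23), Plppr4 (4.10 ± 0.40), the cyclooxygenase-2 gene Ptgs2 (4.04 ± 0.26), the gelatinase gene Mmp9 (3.98 ± 0.45) and the adaptor gene Traf1 (3.77 ± 0.16). All 10 were also raised by TNFα alone, against the same DMSO libraries. The 10 falling genes with the largest changes were all interferon-inducible genes: Ifi213 (-7.72 ± 1.03), Ifi44 (-6.40 ± 0.65), Ifit3b (-6.33 ± 0.68), Ifi206 (-6.11 ± 0.54), Oasl2 (-6.03 ± 0.18), Ifit3 (-5.98 ± 0.43), Rtp4 (-5.82 ± 0.27), Oas3 (-5.72 ± 0.17), Cmpk2 (-5.51 ± 0.45) and Irf7 (-5.32 ± 0.23). None of these 10 was called in TNFα alone against DMSO by edgeR without the replicate block. With the block Ifi213 (-0.65, adjusted p = 0.00317), Ifi206 (-0.56, adjusted p = 0.0138) and Ifit3b (-0.48, adjusted p = 0.0237) passed as lower with TNFα alone. For TPCA-1+TNFα against DMSO, adjusted p values of the 20 genes were at most 0.000118, the value of Cxcl1.

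Genes that TNFα changed by at least 2-fold were placed in classes by their level in TPCA-1+TNFα. A gene is TNFα-like if it still differed from DMSO in the TNFα direction and the 95% interval of its difference from TNFα alone lay within 2-fold. It is partly back if it still differed from DMSO but had also moved from the TNFα level toward DMSO. It has returned if it moved back, no longer differed from DMSO and lay within 2-fold of it by the 95% interval. It is past the unstimulated level if it moved back and differed from DMSO on the other side, and further than TNFα if it exceeded the TNFα change. A gene that met none of these was not placed. All 3 contrasts share libraries, with each other and with the choice of the TNFα-changed genes, so the class sizes are a description with no test.

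Of 523 genes raised by TNFα, 142 (27.2%) stayed TNFα-like, 107 (20.5%) were partly back, 53 (10.1%) had returned, 20 (3.82%) were past the unstimulated level and 31 (5.93%) went further than TNFα. The remaining 170 (32.5%) could not be placed. With the replicate block 48 TNFα-raised genes went further than TNFα. By the call against DMSO alone, 359 of the 523 (68.6%) were still higher, 20 were lower and 144 did not pass. Of 719 genes lowered by TNFα, 213 (29.6%) stayed TNFα-like, 90 (12.5%) were partly back, 65 (9.04%) had returned, 4 were past the unstimulated level, 37 (5.15%) went further and 310 (43.1%) could not be placed. With the replicate block 137 TNFα-lowered genes were partly back and 14 past the unstimulated level. Of the 719, 545 (75.8%) were still lower than DMSO, 4 were higher and 170 did not pass. Without TPCA-1+TNFα 2, the same class held 128 of the 142 TNFα-like, 86 of the 107 partly back, 44 of the 53 returned, 16 of the 20 past and 22 of the 31 further TNFα-raised genes. The further class of TNFα-raised genes shrank to 20 without TNFα 1 and to 19 without TNFα 2. That of TNFα-lowered genes shrank to 20 to 23 without TNFα 1, 2 or 3 and to 21 without TPCA-1+TNFα 4. The 4 TNFα-lowered genes past the unstimulated level, Arrdc3, Icos, Pard3b and Plxdc2, named after their values were seen, became 1 to 8 genes on leaving out single libraries. The call of Arrdc3 against DMSO ended without TPCA-1+TNFα 1, 2 or 4 or DMSO 1, 2 or 3 (adjusted p up to 0.218, reached without TPCA-1+TNFα 4), that of Icos without TPCA-1+TNFα 1 or 4 or DMSO 3 (adjusted p up to 0.0785, reached without TPCA-1+TNFα 1) and that of Pard3b without TPCA-1+TNFα 2 or 4 or DMSO 2, 3 or 4 (adjusted p up to 0.0752, reached without TPCA-1+TNFα 2).

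**Figure D1:**
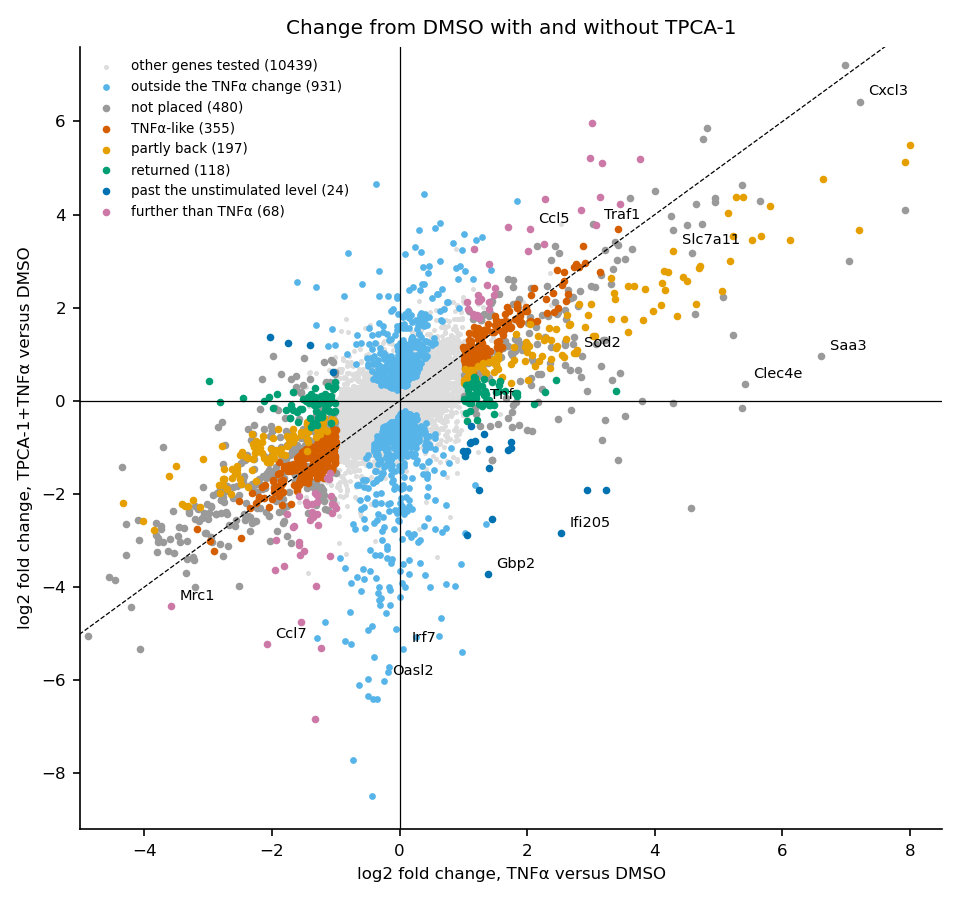
Log2 fold change from DMSO of every gene tested, with TNFα alone on the horizontal axis and TPCA-1+TNFα on the vertical axis, coloured by class, where the dashed line marks equal change. Both axes use the same 4 DMSO libraries. TNFα-like genes lie along the dashed line and returned genes near the horizontal zero line. Genes outside the TNFα change have medians near 0 under TNFα alone (0.05 for the higher and -0.01 for the lower genes). Some of them, such as Cd209g (1.29), lie away from the vertical zero line. Interferon genes such as Oasl2 and Irf7 lie far below the horizontal zero line.

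**Figure D2:**
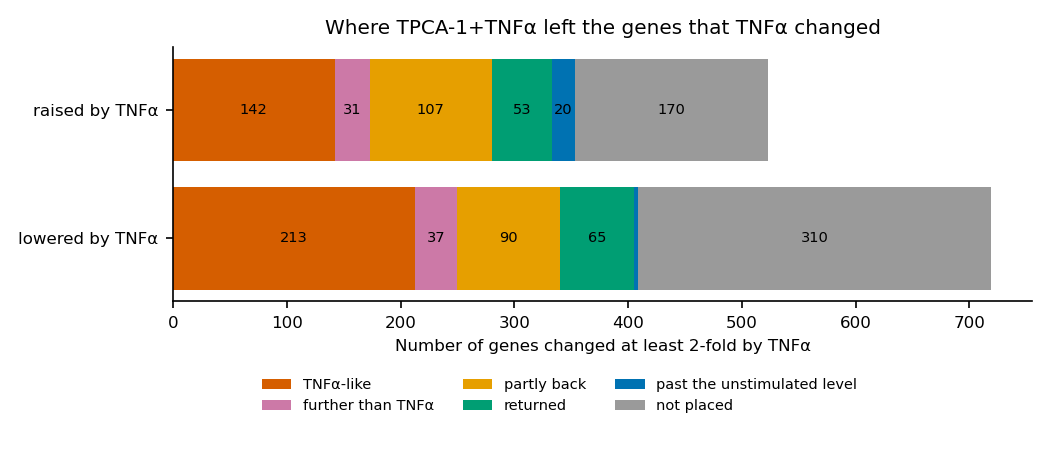
Number of genes in each class among the 523 genes raised and the 719 genes lowered at least 2-fold by TNFα, as stacked bars. In both bars the TNFα-like class (142 and 213 genes) holds more genes than the returned class (53 and 65), and the class of genes past the unstimulated level holds 20 raised and 4 lowered genes.

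The target of TPCA-1 and its partners were looked at first. Ikbkb (ENSMUSG00000031537, GRCm38 chromosome 8, 22659212 to 22706589), the gene of the inhibited kinase, stood at 70.2, 60.6, 71.3 and 65.5 CPM in DMSO 1 to 4 and at 65.8, 69.3, 72.9 and 67.6 CPM in TPCA-1+TNFα 1 to 4. These ranges overlap (0.04 ± 0.08, adjusted p = 0.726). Since TPCA-1 acts on the protein, the transcript does not check the treatment label. Chuk stood at -0.27 ± 0.15 (adjusted p = 0.175). The scaffold gene Ikbkg was higher by 0.37 ± 0.13 (adjusted p = 0.0478), a call that ended without TPCA-1+TNFα 1, 2 or 3 or DMSO 1, 3 or 4 (adjusted p up to 0.124, reached without DMSO 3).

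Among 35 genes of TNF receptor and IKK signalling 13 were higher than DMSO and 3 lower (11 and 2 without TPCA-1+TNFα 2). Over all genes tested 14.8% were higher and 15.5% lower, the shares to set beside every list below. Here the higher share was 37.1% and the lower share, 8.57%, was under that over all genes. Under TNFα alone 12 were higher and 0 lower by edgeR. Traf1 (ENSMUSG00000026875, GRCm38 chromosome 2, 34941750 to 34961772), an adaptor of the receptor complex, stood at 8.92, 9.45, 8.09 and 12.99 CPM in DMSO, 71.2, 75.2, 87.3 and 99.6 CPM in TNFα and 121, 163, 136 and 118 CPM in TPCA-1+TNFα. The lowest TPCA-1+TNFα library lay above the highest TNFα library, and the increase over TNFα alone was 0.69 ± 0.15 (adjusted p = 0.00464). Map3k14, which encodes NIK of the noncanonical branch, stood at 10.6, 10.05, 8.62 and 12.6 CPM in DMSO, 14.03, 15.6, 18.2 and 26.96 CPM in TNFα and 29.1, 64.3, 36.2 and 54.4 CPM in TPCA-1+TNFα. All 4 TPCA-1+TNFα libraries lay above every library of the other groups (2.13 ± 0.25, adjusted p = 8.78e-06 against DMSO, 1.29 ± 0.24, adjusted p = 0.0014 against TNFα).

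The receptor gene Tnfrsf1b, the ubiquitin ligase gene Birc3 and the adaptor gene Traf3 kept their TNFα level. Tnfrsf1b, which encodes the second TNF receptor, was higher than DMSO by 1.10 ± 0.16, with a difference from TNFα of 0.09 ± 0.16 (95% interval -0.24 to 0.42). Birc3 was higher by 1.05 ± 0.13, with a difference from TNFα of -0.22 ± 0.13 (interval -0.51 to 0.06). Traf3 rose by 0.68 ± 0.09 from DMSO, and its difference from TNFα was 0.15 ± 0.09 (interval -0.04 to 0.35). The deubiquitinase gene Tnfaip3, which encodes the feedback inhibitor A20, had returned. It stood at 73.5, 81.6, 72.7 and 84.4 CPM in DMSO, 146, 172, 178 and 169.8 CPM in TNFα and 69.2, 74.7, 98.4 and 61.6 CPM in TPCA-1+TNFα. The TPCA-1+TNFα and DMSO ranges overlap (-0.04 ± 0.13, adjusted p = 0.845, interval -0.30 to 0.23), and the fall from the TNFα level was -1.13 ± 0.13 (adjusted p = 7.29e-06). The 3 lower members were the A20-binding gene Tnip3 (-0.93 ± 0.27) and the kinase genes Map3k8 (-0.33 ± 0.11) and Ikbke (-0.63 ± 0.23). These calls depended on single libraries: that of Tnip3 ended without TPCA-1+TNFα 4 (adjusted p = 0.053), that of Map3k8 without TPCA-1+TNFα 2 or 3 or DMSO 1, 2 or 4 (adjusted p up to 0.0957, reached without TPCA-1+TNFα 2) and that of Ikbke without TPCA-1+TNFα 1, 3 or 4 or DMSO 1, 3 or 4 (adjusted p up to 0.177, reached without DMSO 4).

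Of the 11 genes of NF-κB subunits and IκB inhibitors 8 were higher than DMSO and 1 lower (6 and 1 without TPCA-1+TNFα 2), where TNFα alone raised 6. The inhibitor gene Nfkbia (ENSMUSG00000021025, GRCm38 chromosome 12, 55489410 to 55492647), which encodes IκBα, stood at 124, 125, 121 and 196 CPM in DMSO, 375, 374, 442 and 539.9 CPM in TNFα and 237, 431, 311 and 275 CPM in TPCA-1+TNFα. All TPCA-1+TNFα libraries lay above all DMSO libraries (1.15 ± 0.20, adjusted p = 0.000286), and the difference from TNFα was -0.47 ± 0.19 (interval -0.88 to -0.06), which makes it TNFα-like. With the replicate block Nfkbia was lower than with TNFα alone (-0.46, adjusted p = 0.0382), so this label depends on the fit. Nfkbie, which encodes IκBε, was partly back, at 14.2, 57.6 and 31.9 CPM in DMSO, TNFα and TPCA-1+TNFα (1.18 ± 0.21 against DMSO, -0.85 ± 0.20 against TNFα). Nfkbid, which encodes the nuclear protein IκBNS, rose above both, by 1.43 ± 0.15 from DMSO and 0.95 ± 0.15 from TNFα.

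The subunit gene Nfkb2, the precursor of p52 in the noncanonical branch, stood at 42.3, 34.5, 35.8 and 66.5 CPM in DMSO and 97.6, 140.4, 133 and 121 CPM in TPCA-1+TNFα, without overlap (1.46 ± 0.20, adjusted p = 4.42e-05). Its difference from TNFα was 0.27 ± 0.20 (interval -0.15 to 0.70). Nfkb1, the precursor of p50, was lower than DMSO by -0.45 ± 0.11 (adjusted p = 0.00551) and had not passed under TNFα alone (0.12 ± 0.11, adjusted p = 0.514). The transactivating subunit genes Rela (0.50 ± 0.16) and Relb (0.70 ± 0.23) and the cofactor gene Bcl3 (0.67 ± 0.24) were called higher only in part of the alternatives. The call of Rela ended without TPCA-1+TNFα 3 or 4 or DMSO 1, 2 or 3 (adjusted p up to 0.0743, reached without DMSO 3), that of Relb without TPCA-1+TNFα 2 or 3 or DMSO 1, 2 or 3 (adjusted p up to 0.147, reached without TPCA-1+TNFα 2) and that of Bcl3 without TPCA-1+TNFα 2, 3 or 4 or DMSO 1, 2 or 3 (adjusted p up to 0.119, reached without DMSO 2). The inhibitor gene Nfkbiz stood at -0.03 ± 0.14, adjusted p = 0.9.

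Of 17 inflammatory chemokine genes tested, 8 (47.1%) were higher than DMSO and 6 (35.3%) lower (9 and 6 without TPCA-1+TNFα 2). The promoters of Cxcl3 and Cxcl1 are shown for an NF-κB type motif of 10 bases with 1 free position, searched on both strands. Of the fixed set of named genes that hold a match, these had the largest changes under TNFα alone. Each sequence gives the 250 bases before the transcription start on the gene's strand, from RefSeq on GRCm38.p6, with the match in capitals. The match starts 73 bases before the start of Cxcl3 and 71 bases before that of Cxcl1, where each reads GGGAATTTCC.
Cxcl3 promoter, chr5:90785851-90786100, plus strand: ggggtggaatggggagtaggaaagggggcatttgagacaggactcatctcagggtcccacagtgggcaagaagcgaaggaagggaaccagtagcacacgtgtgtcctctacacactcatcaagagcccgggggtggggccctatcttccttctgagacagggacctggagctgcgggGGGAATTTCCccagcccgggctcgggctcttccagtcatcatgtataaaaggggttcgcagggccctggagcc
Cxcl1 promoter, chr5:90890995-90891244, plus strand: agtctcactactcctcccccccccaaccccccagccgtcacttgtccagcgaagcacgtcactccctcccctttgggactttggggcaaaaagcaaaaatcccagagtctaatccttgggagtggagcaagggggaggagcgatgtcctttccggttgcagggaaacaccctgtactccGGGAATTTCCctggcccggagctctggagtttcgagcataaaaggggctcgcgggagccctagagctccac

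Cxcl3 (ENSMUSG00000029379) stood at 0.735, 0.689, 0.491 and 2.03 CPM in DMSO, 129, 187, 124 and 141 CPM in TNFα and 133, 73.05, 99.2 and 30.8 CPM in TPCA-1+TNFα. The lowest TPCA-1+TNFα library, replicate 4, lay above every DMSO library (6.43 ± 0.48, adjusted p = 4.06e-08). Its difference from TNFα was -0.79 ± 0.34, adjusted p = 0.116, with an interval of -1.51 to -0.08, and the gene was not placed in a class. Cxcl1 (ENSMUSG00000029380) stood at 1.99, 3.94, 1.61 and 0.468 CPM in DMSO, 96.7, 161, 104 and 43.5 CPM in TNFα and 48.3, 47.9, 55.7 and 6.07 CPM in TPCA-1+TNFα. TPCA-1+TNFα 4 lay far below the other 3 libraries of its group, yet above every DMSO library (4.29 ± 0.65, adjusted p = 0.000118). Against TNFα the change of Cxcl1 was -1.37 ± 0.54, adjusted p = 0.0929. Cxcl2 stood at 14.3, 19.99, 14.5 and 19.8 CPM in DMSO, 513, 763, 725 and 643 CPM in TNFα and 370.0, 295, 544 and 219 CPM in TPCA-1+TNFα. It was partly back: no TPCA-1+TNFα library overlapped DMSO (4.38 ± 0.24), and the mean was below that of TNFα (-0.89 ± 0.23, adjusted p = 0.0121), with TPCA-1+TNFα 3 above TNFα 1.

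Cxcl5, another neutrophil chemokine, was low throughout, at 0.0492 CPM in DMSO and 0.960 CPM in TPCA-1+TNFα (4.23 ± 1.36, adjusted p = 0.00346). Cxcl16, the ligand of CXCR6, was higher by 0.44 ± 0.11, with a difference from TNFα of -0.005 ± 0.11. Among the CC genes Ccl5, which attracts T cells and monocytes, stood at 6.09, 10.1, 8.49 and 8.47 CPM in DMSO, 41.4, 18.98, 40.1 and 36.9 CPM in TNFα and 56.7, 139, 36.97 and 195 CPM in TPCA-1+TNFα. It was higher than DMSO by 3.68 ± 0.42 and than TNFα by 1.64 ± 0.40 (adjusted p = 0.00955), although TPCA-1+TNFα 3 lay within the TNFα range. The remaining higher members were Ccl3 (0.33 ± 0.10), whose call ended without DMSO 3 (adjusted p = 0.0647), and the interferon-inducible Cxcl10 (1.17 ± 0.43), whose call ended without TPCA-1+TNFα 1 or 4 or DMSO 2, 3 or 4 (adjusted p up to 0.141, reached without DMSO 3).

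The monocyte chemoattractant genes Ccl2, Ccl7, Ccl8 and Ccl12, which encode ligands of CCR2 and related receptors, fell below DMSO. Ccl2 (ENSMUSG00000035385, GRCm38 chromosome 11, 82035571 to 82037453) stood at 162, 118, 161 and 119.5 CPM in DMSO, 90.2, 37.7, 81.9 and 84.8 CPM in TNFα and 17.6, 7.16, 17.4 and 10.6 CPM in TPCA-1+TNFα. The TPCA-1+TNFα libraries lay below every library of both other groups (-3.38 ± 0.35, adjusted p = 4.03e-06 against DMSO, -2.45 ± 0.35, adjusted p = 0.000146 against TNFα), and TNFα alone had not passed (-0.93 ± 0.34, adjusted p = 0.0601) except with the replicate block (-0.98, adjusted p = 0.000829). Ccl7 stood at 231, 182, 266 and 133 CPM in DMSO, 64.8, 31.3, 53.6 and 41.6 CPM in TNFα and 7.18, 0.810, 5.44 and 6.705 CPM in TPCA-1+TNFα. The groups did not overlap and replicate 2 was the lowest of the TPCA-1+TNFα libraries. Without it the change from DMSO was -4.98 ± 0.41, adjusted p = 1.89e-06, beside -5.23 ± 0.44 with it. Ccl12 (-3.05 ± 0.34) and Ccl8 (-1.78 ± 0.23) fell as well, as did Ccl6 (-1.41 ± 0.22), which stayed at its TNFα level (-0.13 ± 0.22 against TNFα). The interferon-inducible Cxcl9 was called lower at a level close to the floor, at 0.486 CPM in DMSO and at most 3 counts in any TPCA-1+TNFα library, and its call ended without TPCA-1+TNFα 3 or 4 (adjusted p up to 0.0543, reached without TPCA-1+TNFα 4).

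Of 18 cytokine and inflammatory enzyme genes 5 were higher than DMSO and 4 lower (5 and 3 without TPCA-1+TNFα 2), where TNFα alone raised 11. The shares higher and lower than DMSO were 27.8% and 22.2%, beside 14.8% and 15.5% over all genes tested. Relative to TNFα alone 13 of the 18 were lower and 0 higher by edgeR (14 and 1 with the replicate block). Ptgs2 (ENSMUSG00000032487, GRCm38 chromosome 1, 150100031 to 150108227) stood at 3.36, 4.43, 2.59 and 2.703 CPM in DMSO, 95.8, 129, 139 and 101 CPM in TNFα and 70.2, 34.6, 71.5 and 38.2 CPM in TPCA-1+TNFα. It was partly back, with no overlap between the 3 groups (-1.11 ± 0.23 against TNFα, adjusted p = 0.0026). Acod1, which makes itaconate, went from 126 ± 35.1 CPM in DMSO to 3160.3 ± 449 CPM in TNFα and 531 ± 238 CPM in TPCA-1+TNFα (SD, n = 4). It too was partly back (2.08 ± 0.27 against DMSO, -2.57 ± 0.27 against TNFα). Il6 was low in all groups, at 0.0525, 0.0985, 0.0893 and 0.208 CPM in DMSO, 1.76, 0.834, 1.77 and 1.302 CPM in TNFα and 3.37, 0.945, 2.77 and 2.14 CPM in TPCA-1+TNFα. No TPCA-1+TNFα library lay below TNFα 2, and the gene differed from DMSO (4.36 ± 0.65, adjusted p = 9.97e-06) but not from TNFα by the test (0.75 ± 0.38, adjusted p = 0.176).

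Tnf itself (ENSMUSG00000024401, GRCm38 chromosome 17, 35199381 to 35202007) had returned. It stood at 219, 220.1, 223 and 309 CPM in DMSO, 497, 548, 609.5 and 719 CPM in TNFα and 198, 219, 298 and 188 CPM in TPCA-1+TNFα. TPCA-1+TNFα and DMSO overlapped (-0.10 ± 0.16, adjusted p = 0.655, interval -0.45 to 0.24), and every TNFα library lay above both. Il1b stood at 1.102, 1.38, 1.07 and 2.03 CPM in DMSO, 15.2, 8.63, 17.6 and 19.6 CPM in TNFα and 1.71, 2.03, 4.16 and 0.486 CPM in TPCA-1+TNFα. It had moved back (-2.86 ± 0.42, adjusted p = 0.000142 against TNFα) and did not differ from DMSO by the test (0.59 ± 0.47, adjusted p = 0.361), but its interval of -0.41 to 1.59 was too wide to place it. Ptges, the prostaglandin E synthase gene, had returned (0.45 ± 0.22, adjusted p = 0.123), and passed the threshold without TPCA-1+TNFα 4. Nos2 did not exceed 3 counts in any DMSO library, stood at 1.28 CPM in TNFα, and was at 0 in TPCA-1+TNFα except for 0.297 CPM in replicate 3.

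The other higher members were the gp130 cytokine gene Osm (0.90 ± 0.19) and the anti-inflammatory Il10 (0.72 ± 0.26), whose call ended without TPCA-1+TNFα 1 or 3 or DMSO 1, 2, 3 or 4 (adjusted p up to 0.224, reached without TPCA-1+TNFα 3). The lower members were the inflammasome substrate gene Il18 (-1.71 ± 0.22), the macrophage growth factor gene Csf1 (-2.002 ± 0.29), Il27, at 0.368 CPM in DMSO and at most 3 counts in any TPCA-1+TNFα library, and the receptor antagonist gene Il1rn (-0.95 ± 0.30), whose call ended without TPCA-1+TNFα 2 or 4 or DMSO 1, 2 or 3 (adjusted p up to 0.081, reached without TPCA-1+TNFα 4). None of these 4 was called under TNFα alone by edgeR, with adjusted p of 0.8, 0.367, 0.189 and 0.757.

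**Figure D3:**
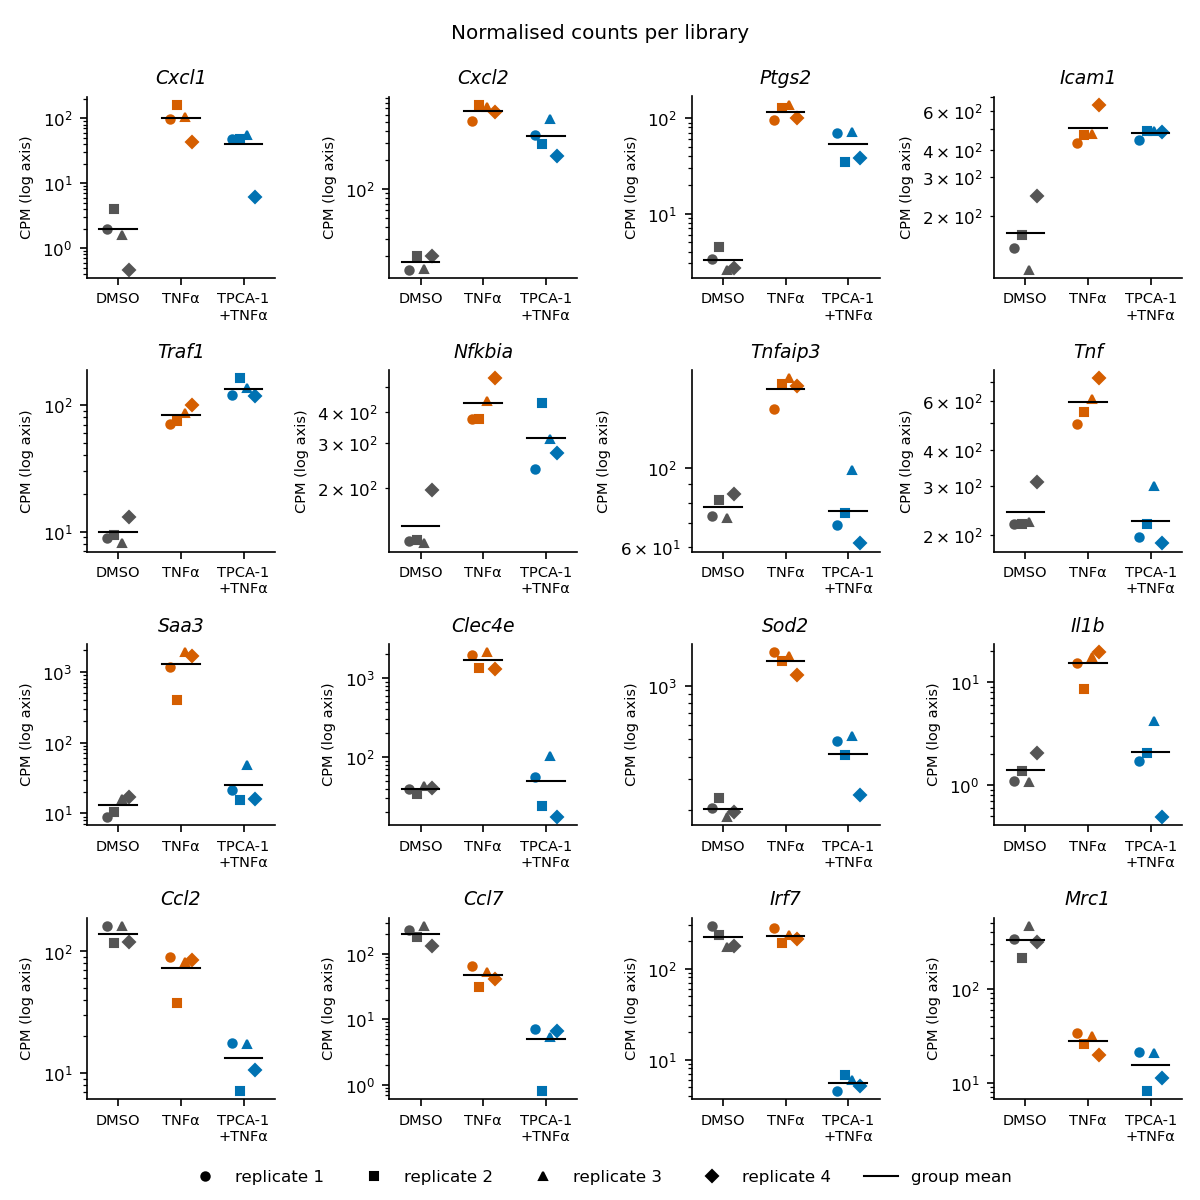
CPM of 16 genes in each DMSO, TNFα and TPCA-1+TNFα library on log axes that differ between panels, with 1 symbol per replicate number and a bar at the group mean. Icam1, Traf1 and Nfkbia lie above DMSO in every TPCA-1+TNFα library, Tnf and Tnfaip3 overlap DMSO again, and Ccl2, Ccl7 and Irf7 lie below both other groups.

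Saa3 and Clec4e, named among the TNFα-raised genes that were not placed, lost most of a large TNFα response. The acute-phase gene Saa3 stood at 8.87, 10.6, 16.2 and 16.8 CPM in DMSO, 1175, 403, 1882 and 1669.9 CPM in TNFα and 21.3, 15.3, 48.9 and 15.9 CPM in TPCA-1+TNFα. Clec4e, which encodes the receptor Mincle, stood at 39.9, 34.2, 43.4 and 40.4 CPM in DMSO, 1945, 1354, 2117 and 1298 CPM in TNFα and 56.2, 23.9, 104 and 17.5 CPM in TPCA-1+TNFα. In both genes the TPCA-1+TNFα range overlapped DMSO and lay below every TNFα library. The differences from DMSO were 0.97 ± 0.50, adjusted p = 0.156 for Saa3 and 0.36 ± 0.39, adjusted p = 0.504 for Clec4e, with intervals of -0.09 to 2.02 and -0.46 to 1.18 that kept both out of the returned class.

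The named TNFα-raised genes that had returned were the fatty acid receptor gene Gpr84 (0.20 ± 0.33 against DMSO, -3.19 ± 0.32 against TNFα), Ptges, the lipid transfer gene Osbpl3 (0.19 ± 0.28, -2.09 ± 0.28), Plekhg1 (-0.06 ± 0.32, -2.17 ± 0.31) and the surface receptor gene Slamf8 (0.16 ± 0.21, -1.69 ± 0.20). Gpr84 stood at 4.93, 8.03, 6.66 and 13.9 CPM in DMSO, 75.7, 64.9, 100.1 and 109.9 CPM in TNFα and 9.53, 11.7, 13.96 and 3.69 CPM in TPCA-1+TNFα, so that only TPCA-1+TNFα 3 exceeded DMSO 4, by little. The named genes past the unstimulated level were the interferon-inducible Ifi205 (-2.84 ± 0.62 against DMSO, where TNFα alone gave 2.53 ± 0.45), the GTPase gene Gbp2 (-3.72 ± 0.34, 1.38 ± 0.26), Ms4a4a (-1.03 ± 0.27, 1.40 ± 0.25), the immunoglobulin superfamily gene Igsf6 (-0.88 ± 0.24, 1.75 ± 0.23) and the adaptor gene Samsn1 (-0.72 ± 0.18, 1.32 ± 0.18). Gbp2 stood at 32.4, 20.1, 18.3 and 21.3 CPM in DMSO, 76.4, 41.9, 71.5 and 49.4 CPM in TNFα and 1.71, 2.84, 1.73 and 1.21 CPM in TPCA-1+TNFα. The 3 groups of Gbp2 did not overlap.

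The NF-κB type motif was found in the promoter (250 bases before to 50 after the start, both strands) of 11 of the 391 TNFα-raised genes with a RefSeq promoter (2.81%), against 51 of 9289 genes tested (0.549%). It was in 2 of 110 TNFα-like, 1 of 84 partly back, 1 of 42 returned, 2 of 16 past and 0 of 23 further genes, and in 5 of 116 not placed. These numbers are too small to compare the classes. Slamf8, which returned, and Ms4a4a, which went past the unstimulated level, are also shown. Apart from Cxcl3 and Cxcl1 above, they are the named class members with the largest TNFα change that hold the motif. The match of Slamf8 reads GGGACTTTCC and starts 36 bases after the transcription start, so only 30 bases around it are given, and that of Ms4a4a reads GGGATTTTCC and starts 247 bases before the start.
Slamf8, chr1:172590519-172590548, minus strand: tcctccttctgaacatGGGACTTTCCagca
Ms4a4a promoter, chr19:11375238-11375487, plus strand: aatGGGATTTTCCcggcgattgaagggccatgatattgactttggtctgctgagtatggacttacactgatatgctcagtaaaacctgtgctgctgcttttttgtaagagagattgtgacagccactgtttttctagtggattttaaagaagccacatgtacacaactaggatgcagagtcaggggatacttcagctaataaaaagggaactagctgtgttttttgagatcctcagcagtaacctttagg

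Interferon-stimulated genes had the lowest median of the lists used here. All 45 tested were lower in TPCA-1+TNFα than in DMSO, beside 15.5% of all genes, with a median of -3.31, and all 45 were lower without TPCA-1+TNFα 2. TNFα alone raised 6 of the 45 (Gbp2, Gbp3, Gbp5, Ifi205, Isg15 and Oasl1) and lowered 0 by edgeR (11 and 4 with the replicate block), with a median of 0.07, and all 45 were also lower than with TNFα alone. The changes ran from -6.40 ± 0.65 for Ifi44 to -0.60 ± 0.17 for Irf1. Single libraries were left out for the list members named here, and the call of Irf1 ended without DMSO 1 (adjusted p = 0.0572). Several of these genes have close relatives (the Ifi200, Ifit, Oas and Gbp families), and only uniquely mapped reads were counted, so single members are less certain than the group.

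The promoters of Oas3 and Oas1a are shown for this group, with a motif of the interferon-stimulated response element type in capitals, which is GAAA repeated after 2 free positions, searched on both strands. Both encode oligoadenylate synthetases that activate RNase L, and both had among the smallest adjusted p of all genes. The motif and these genes were chosen after the values were seen. In Oas3 the match GAAAACGAAA starts 75 bases before the transcription start. In Oas1a the matches GAAATGGAAA and GAAACTGAAA start 20 and 14 bases before it and overlap. The motif was in the promoters of 21 of the 33 listed genes with a RefSeq promoter (63.6%), against 376 of 9289 genes tested (4.05%), and these listed genes are known for it.
Oas3 promoter, chr5:120777660-120777909, minus strand: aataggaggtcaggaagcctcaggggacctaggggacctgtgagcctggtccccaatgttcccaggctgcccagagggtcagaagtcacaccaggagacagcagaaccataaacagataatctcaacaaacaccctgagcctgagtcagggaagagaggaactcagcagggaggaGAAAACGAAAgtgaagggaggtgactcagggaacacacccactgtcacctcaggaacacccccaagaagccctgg
Oas1a promoter, chr5:120907526-120907775, minus strand: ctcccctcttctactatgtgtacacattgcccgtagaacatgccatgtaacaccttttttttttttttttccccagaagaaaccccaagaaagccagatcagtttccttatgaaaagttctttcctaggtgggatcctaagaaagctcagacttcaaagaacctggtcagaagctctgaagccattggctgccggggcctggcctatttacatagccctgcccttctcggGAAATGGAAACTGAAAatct

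Oas3 (ENSMUSG00000032661) stood at 258, 194, 146 and 196 CPM in DMSO, 192, 162, 175 and 178 CPM in TNFα and 3.13, 4.46, 4.405 and 3.304 CPM in TPCA-1+TNFα. Oas1a stood at 167, 148, 126 and 155 CPM in DMSO, 168, 144, 177 and 182 CPM in TNFα and 19.002, 18.9, 21.7 and 18.3 CPM in TPCA-1+TNFα. In both genes the DMSO and TNFα ranges overlapped, and every TPCA-1+TNFα library lay far below them (Oas3 -5.72 ± 0.17, adjusted p = 3.22e-12, Oas1a -2.93 ± 0.11, adjusted p = 2.4e-11).

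The factors that drive these genes fell too. Irf7, which amplifies type I interferon production, stood at 293, 233, 174 and 179 CPM in DMSO, 277, 189, 234 and 211 CPM in TNFα and 4.54, 6.75, 5.94 and 5.102 CPM in TPCA-1+TNFα. Every TPCA-1+TNFα library lay below all libraries of the other 2 groups (-5.32 ± 0.23, adjusted p = 2.82e-10). Stat2 (-2.76 ± 0.18) and Irf9 (-2.37 ± 0.12), subunits of the complex that binds interferon response elements, fell.

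Among antiviral effectors Isg15, which encodes a ubiquitin-like modifier, stood at 61.2, 45.7, 38.2 and 47.2 CPM in DMSO and 4.88, 5.81, 3.71 and 4.71 CPM in TPCA-1+TNFα (-3.36 ± 0.22, adjusted p = 1.24e-08). Ifit1, which binds viral RNA, stood at 149.8, 120.4, 74.2 and 70.996 CPM in DMSO and 8.402, 5.401, 6.14 and 10.4 CPM in TPCA-1+TNFα (-3.74 ± 0.31, adjusted p = 3.24e-07). The libraries of the 2 groups were separate for both genes. Rsad2, which encodes viperin (-4.21 ± 0.40), the GTPase gene Mx1 (-4.001 ± 0.47), and Usp18, which removes ISG15 and restrains the interferon receptor (-4.005 ± 0.21), fell. The sensor genes Ddx58 (-3.03 ± 0.19) and Ifih1 (-2.27 ± 0.18) and the immunity-related GTPase genes Irgm1 (-3.21 ± 0.19) and Igtp (-2.32 ± 0.16) were lower as well. Gbp5, a GTPase gene that TNFα raised (1.46 ± 0.36), was below DMSO by 2.54 ± 0.51 with TPCA-1.

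Of 19 genes of JAK-STAT signalling and SOCS feedback 0 were higher by edgeR and 3 lower than DMSO (2 without TPCA-1+TNFα 2), a lower share of 15.8% that was about that over all genes tested (15.5%). With the replicate block 2 were higher and 4 lower. The 3 lower genes without the block were the interferon receptor genes Ifngr1 (-0.55 ± 0.11, adjusted p = 0.00139) and Ifnar2 (-0.39 ± 0.12, adjusted p = 0.0217) and Stat4 (-0.83 ± 0.17). The call of Ifnar2 ended without TPCA-1+TNFα 2 or 4 or DMSO 3 (adjusted p up to 0.0727, reached without TPCA-1+TNFα 4).

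**Figure D4:**
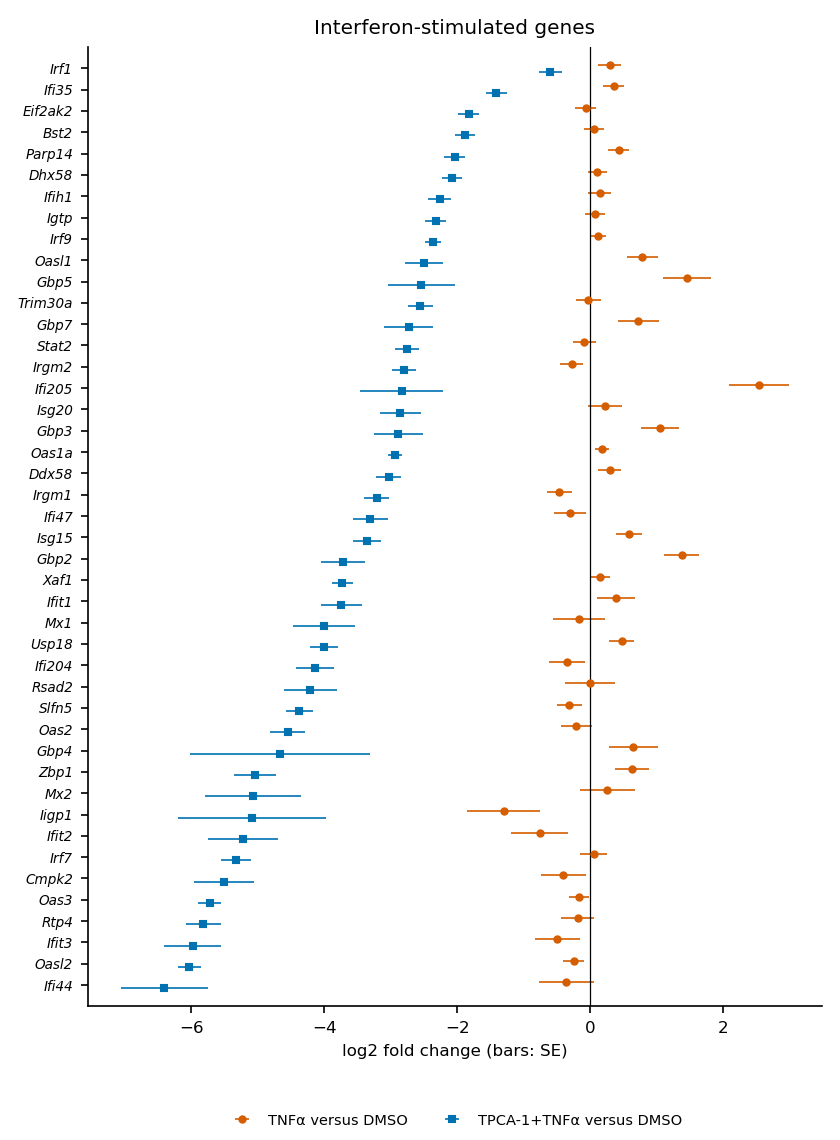
Log2 fold change from DMSO ± SE of 44 of the 45 interferon-stimulated genes tested, with TNFα alone as circles and TPCA-1+TNFα as squares, sorted by the latter. Every square lies below 0, from Irf1 at the top to Ifi44 at the bottom, while the circles scatter around 0 apart from genes such as Ifi205.

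Antigen presentation genes were lower than DMSO in 12 of 24 cases and higher in 1 (14 and 1 without TPCA-1+TNFα 2). The class I light chain gene B2m went from 9877 ± 1861 CPM in DMSO to 5536 ± 1118 CPM in TPCA-1+TNFα (SD, n = 4, -0.84 ± 0.18, adjusted p = 0.00217). The nonclassical class I gene H2-T23 (-2.49 ± 0.13), the class I transactivator gene Nlrc5 (-1.88 ± 0.15), the peptide transporter gene Tap1 (-1.14 ± 0.16) and the immunoproteasome genes Psmb9 (-0.98 ± 0.24) and Psme1 (-0.84 ± 0.09) fell. None of these 6 was called under TNFα alone by edgeR, with adjusted p from 0.169 for H2-T23 to 0.996 for Nlrc5. The higher member was Cd274, which encodes PD-L1, at 198, 542 and 358 CPM in DMSO, TNFα and TPCA-1+TNFα. It was partly back (0.86 ± 0.14 against DMSO, -0.60 ± 0.14 against TNFα).

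Proliferation genes stayed low. Of 44 cell cycle genes 38 were lower than DMSO and 1 higher (38 and 1 without TPCA-1+TNFα 2), with a median of -1.70, and TNFα alone lowered 42 and raised 1, with a median of -2.07. Relative to TNFα alone 8 were higher and 0 lower by edgeR (12 and 1 with the replicate block), and 15 were TNFα-like, 6 partly back and 17 not placed. The mitotic kinase gene Cdk1 stood at 27.8, 25.8, 38.8 and 34.3 CPM in DMSO, 8.63, 9.51, 9.59 and 8.39 CPM in TNFα and 11.3, 9.99, 13.4 and 11.7 CPM in TPCA-1+TNFα. It kept clear of DMSO (-1.44 ± 0.14, adjusted p = 6.68e-07), and each TPCA-1+TNFα library lay slightly above all TNFα libraries (0.37 ± 0.14, adjusted p = 0.0725). Ccnd1, which encodes cyclin D1, stood at 167, 164, 281 and 212 CPM in DMSO, 28.97, 28.98, 42.6 and 25.03 CPM in TNFα and 52.8, 46.04, 78.1 and 43.6 CPM in TPCA-1+TNFα. It was partly back, with no overlap between the groups (-1.90 ± 0.21 against DMSO, 0.81 ± 0.22 against TNFα).

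The replication helicase genes Mcm2 (-1.85 ± 0.16 against DMSO, 0.53 ± 0.17 against TNFα) and Mcm4 (-1.75 ± 0.15, 0.09 ± 0.16) were partly back and TNFα-like. The proliferation marker gene Mki67 was TNFα-like (-2.09 ± 0.26, 0.03 ± 0.26), and the ribonucleotide reductase gene Rrm2 was partly back (-2.78 ± 0.33, 1.07 ± 0.37). The higher member of the list was the CDK inhibitor gene Cdkn1a (0.72 ± 0.18), with a difference from TNFα of -0.01 ± 0.18. The CDK inhibitor gene Cdkn2b, a named TNFα-like gene, rose from 3.46 ± 1.55 CPM in DMSO to 25.5 ± 2.56 CPM in TNFα and 34.5 ± 5.45 CPM in TPCA-1+TNFα (SD, n = 4). With the replicate block it exceeded its TNFα level (0.45, adjusted p = 0.0386).

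Oxidative stress genes of the NRF2 response stayed raised. Of 32 such genes 28 were higher than DMSO and 1 lower (28 and 0 without TPCA-1+TNFα 2), with a median of 0.97, and TNFα alone raised 23, with a median of 1.03. Of the 17 raised at least 2-fold by TNFα 12 were TNFα-like and 5 partly back. Hmox1, the heme oxygenase gene, stood at 1264 ± 381 CPM in DMSO, 3981 ± 485 CPM in TNFα and 4603 ± 1082 CPM in TPCA-1+TNFα (SD, n = 4). Its difference from TNFα was 0.21 ± 0.19 (interval -0.19 to 0.61). The cystine transporter gene Slc7a11 stood at 29.2, 36.6, 18.9 and 17.8 CPM in DMSO, 539, 493, 531 and 443 CPM in TNFα and 311, 159, 306 and 180.4 CPM in TPCA-1+TNFα. It was partly back, and its 3 groups did not overlap (-1.07 ± 0.23 against TNFα).

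The glutathione synthase gene Gss (1.99 ± 0.18), the thioredoxin reductase gene Txnrd1 (1.57 ± 0.15) and the glutamate-cysteine ligase gene Gclm (1.10 ± 0.22) were TNFα-like. With the replicate block Gss was lower than with TNFα alone (-0.47, adjusted p = 0.038). Prdx6, a peroxiredoxin gene, rose from DMSO by 1.10 ± 0.10 and from TNFα by 0.38 ± 0.10. Sod2, the mitochondrial superoxide dismutase gene, which is also a direct NF-κB target, stood at 205, 234, 183 and 195 CPM in DMSO, 1546, 1374, 1479 and 1145 CPM in TNFα and 488, 406, 521 and 244 CPM in TPCA-1+TNFα. Every TPCA-1+TNFα library lay between the 2 other groups (1.02 ± 0.18 against DMSO, -1.74 ± 0.18 against TNFα). Nqo1 was partly back (1.31 ± 0.27, -0.94 ± 0.26). The lower member, Mgst1, stood at -0.59 ± 0.18, and its call ended without TPCA-1+TNFα 2 or 4 or DMSO 1, 2 or 3 (adjusted p up to 0.0616, reached without TPCA-1+TNFα 4).

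Glycolysis and hypoxia genes were higher than DMSO in 18 of 30 cases and lower in 2 (18 and 2 without TPCA-1+TNFα 2), where TNFα alone raised 20 and lowered 2 (22 and 4 with the replicate block). The glucose transporter gene Slc2a1 stood at 62.7, 78.7, 61.5 and 85.5 CPM in DMSO, 163, 166, 186 and 205 CPM in TNFα and 165, 232, 222 and 205 CPM in TPCA-1+TNFα. TNFα and TPCA-1+TNFα overlapped and both lay above DMSO (1.51 ± 0.15, adjusted p = 9.29e-07). The vasodilator peptide gene Adm (2.96 ± 0.29) and the oxygen sensor gene Egln3 (2.01 ± 0.24) were TNFα-like, with differences from TNFα of 0.05 ± 0.26 and 0.02 ± 0.23. The 2 lower members, named after their values were seen, were Pdk1 (-0.50 ± 0.13) and Ndrg1 (-0.73 ± 0.21), and the call of Ndrg1 ended without DMSO 4 (adjusted p = 0.0511).

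Cholesterol biosynthesis genes were lower than DMSO in 10 of 24 cases and higher in 0 by edgeR (8 and 0 without TPCA-1+TNFα 2), with a median of -0.86. TNFα alone raised 1 and lowered 0 by edgeR (8 and 0 with the replicate block), and 16 of the 24 were lower than with TNFα alone. Hmgcs1, the synthase that feeds the mevalonate pathway, stood at 37.5, 20.3, 28.2 and 56.5 CPM in DMSO, 54.7, 23.9, 41.4 and 52.5 CPM in TNFα and 17.9, 10.3, 14.8 and 15.2 CPM in TPCA-1+TNFα. TPCA-1+TNFα lay below DMSO in every library, and DMSO itself varied widely between replicates (-1.27 ± 0.29, adjusted p = 0.00297). The sterol reductase gene Hsd17b7 (-1.16 ± 0.27) and the sterol transporter gene Stard4 (-1.34 ± 0.33) fell.

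In lipid handling 5 of 31 genes were higher than DMSO and 13 lower (5 and 12 without TPCA-1+TNFα 2), where TNFα alone raised 5 and lowered 10. The lower share was 41.9%, and the higher share, 16.1%, was near that over all genes tested (14.8%). Plin2, which coats lipid droplets, stood at 355, 545, 371 and 366 CPM in DMSO, 202, 328, 206 and 201 CPM in TNFα and 1002, 1519, 901 and 1150.1 CPM in TPCA-1+TNFα. TNFα lowered it (-0.80 ± 0.25) and TPCA-1+TNFα libraries were all above all DMSO libraries (1.48 ± 0.25, adjusted p = 0.000258). The scavenger receptor gene Marco was TNFα-like and higher (2.01 ± 0.26). The cholesterol exporter gene Abca1 stood at 639, 558, 677 and 508 CPM in DMSO, 495, 452, 427 and 323 CPM in TNFα and 273, 225, 272 and 233 CPM in TPCA-1+TNFα, so that it fell below both groups (-1.25 ± 0.15 against DMSO, -0.76 ± 0.15 against TNFα). The lipoprotein lipase gene Lpl (-1.39 ± 0.17), the lipid receptor gene Trem2 (-1.39 ± 0.17), the sterol hydroxylase gene Cyp27a1 (-1.57 ± 0.16) and the cholesteryl ester hydrolase gene Nceh1 (-0.92 ± 0.10) were lower, and the last 3 were TNFα-like.

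Macrophage identity genes were lower than DMSO in 17 of 32 cases and higher in 2 (17 and 3 without TPCA-1+TNFα 2). The high-affinity Fc receptor gene Fcgr1 stood at 308, 230.0, 235 and 229 CPM in DMSO, 163, 103, 156 and 138 CPM in TNFα and 31.2, 18.2, 29.5 and 23.2 CPM in TPCA-1+TNFα. The 3 groups were separate (-3.28 ± 0.23, adjusted p = 4.06e-08 against DMSO, -2.44 ± 0.23 against TNFα). Siglec1, a sialic acid receptor gene that interferon also induces, stood at 128, 88.3, 136 and 161 CPM in DMSO, 99.3, 79.1, 133 and 134 CPM in TNFα and 12.6, 8.64, 28.8 and 7.87 CPM in TPCA-1+TNFα. Only TPCA-1+TNFα differed from DMSO by the test for Siglec1 (-3.12 ± 0.34, against -0.20 ± 0.33, adjusted p = 0.725 with TNFα alone), and its difference from TNFα passed (-2.92 ± 0.34). Cd33 (-3.09 ± 0.23), the integrin gene Itgam (-1.13 ± 0.22), the complement gene C1qa (-1.18 ± 0.14), Cd68 (-1.003 ± 0.15) and the lipopeptide receptor gene Tlr2 (-0.72 ± 0.10) fell.

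The endosomal receptor gene Tlr9 had returned from its TNFα level (1.33 ± 0.23 against TNFα, -0.38 ± 0.22, adjusted p = 0.211 against DMSO). The growth factor receptor gene Csf1r, which TNFα raised (0.72 ± 0.20), stood at -0.38 ± 0.20, adjusted p = 0.157 against DMSO, and passed without TPCA-1+TNFα 3. The higher members were the actin-binding gene Aif1 (0.65 ± 0.16) and the transcription factor gene Cebpb (0.77 ± 0.24), whose call ended without TPCA-1+TNFα 3 or DMSO 1, 2 or 3 (adjusted p up to 0.0982, reached without TPCA-1+TNFα 3).

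Alternative activation genes were lower than DMSO in 8 of 15 cases and higher in 3 (the same counts without TPCA-1+TNFα 2). The shares were 53.3% and 20%, beside 15.5% and 14.8% over all genes tested. The mannose receptor gene Mrc1 (ENSMUSG00000026712, GRCm38 chromosome 2, 14229392 to 14332057) stood at 336, 214, 467 and 316 CPM in DMSO, 33.7, 26.2, 31.7 and 19.7 CPM in TNFα and 21.2, 8.24, 20.7 and 11.2 CPM in TPCA-1+TNFα. It went further than with TNFα alone (-0.83 ± 0.27, adjusted p = 0.0414), although TPCA-1+TNFα 1 and 3 lay above TNFα 4. The folate receptor gene Folr2 (-1.90 ± 0.21) and the efferocytosis ligand gene Gas6 (-1.43 ± 0.17) fell, the latter TNFα-like. The higher members were Klf4 (1.34 ± 0.23), which TNFα alone had not changed by the test (0.18 ± 0.23, adjusted p = 0.655), the TNFα-like transglutaminase gene Tgm2 (0.998 ± 0.19) and Il4ra (0.66 ± 0.15).

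Lysosome genes were lower than DMSO in 17 of 36 cases and higher in 1 (19 and 1 without TPCA-1+TNFα 2), where TNFα alone lowered 15 and raised 1. The protease gene Ctsb went from 9555 ± 921 CPM in DMSO to 6592 ± 371 CPM in TNFα and 4542 ± 503 CPM in TPCA-1+TNFα (SD, n = 4). It fell below both groups (-1.07 ± 0.10 against DMSO, -0.54 ± 0.10 against TNFα). The protease gene Ctss (-1.03 ± 0.18) and the cholesterol transfer gene Npc2 (-0.82 ± 0.11) fell, and TNFα alone had not lowered either by the test (-0.40 ± 0.18, adjusted p = 0.115 and -0.29 ± 0.11, adjusted p = 0.0714). With the replicate block both passed (adjusted p = 0.0011 for Ctss and 0.0195 for Npc2). The higher member was the proton pump subunit gene Atp6v0d1 (0.52 ± 0.11).

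Adhesion and matrix genes were higher than DMSO in 9 of 29 cases and lower in 6, with or without TPCA-1+TNFα 2. The shares were 31.0% and 20.7%, beside 14.8% and 15.5% over all genes tested. The adhesion receptor gene Icam1 (ENSMUSG00000037405, GRCm38 chromosome 9, 21015985 to 21028817) stood at 143, 164, 114 and 248 CPM in DMSO, 430.1, 470.1, 471 and 642 CPM in TNFα and 444, 489, 487 and 483 CPM in TPCA-1+TNFα. It kept its TNFα level, with overlapping ranges and a difference of -0.08 ± 0.19 (interval -0.48 to 0.31). Mmp9 stood at 3.67, 3.25, 8.13 and 6.39 CPM in DMSO, 94.6, 70.2, 134 and 113 CPM in TNFα and 92.1, 29.3, 172 and 44.4 CPM in TPCA-1+TNFα. Its TPCA-1+TNFα libraries spread on both sides of the TNFα range and all lay above DMSO (3.98 ± 0.45, adjusted p = 9.97e-06). The integrin gene Itga5 went further than with TNFα (1.82 ± 0.20 against DMSO, 0.66 ± 0.20 against TNFα), and the matrix gene Thbs1 stood at 2.22 ± 0.29. The collagenase gene Mmp13 (-3.33 ± 0.30), the plasminogen activator gene Plau (-2.42 ± 0.21) and the osteopontin gene Spp1 (-2.38 ± 0.27) fell further than with TNFα, and the protease inhibitor gene Timp2 was TNFα-like (-1.39 ± 0.13). With the replicate block Timp2 was higher than with TNFα alone (0.33, adjusted p = 0.0142).

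Of 33 apoptosis and survival genes 10 were higher than DMSO and 5 lower (11 and 4 without TPCA-1+TNFα 2), where TNFα alone raised 13 and lowered 4. The higher share was 30.3%, and the lower share, 15.2%, was about that over all genes tested (15.5%). Gadd45b, a stress-induced gene of the growth arrest family, was TNFα-like (1.56 ± 0.16), and the immediate-early survival gene Ier3 was partly back (1.14 ± 0.14 against DMSO, -1.32 ± 0.14 against TNFα). Bcl2l1, which encodes the survival protein BCL-xL, fell by 1.02 ± 0.13. Other lower members were the caspase gene Casp4 (-0.92 ± 0.17), the necroptosis gene Mlkl (-0.76 ± 0.15) and the caspase inhibitor gene Xiap (-0.53 ± 0.17), named after their values were seen. The call of Xiap ended without TPCA-1+TNFα 2 or 4 or DMSO 1, 2 or 3 (adjusted p up to 0.076, reached without DMSO 1).

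In the unfolded protein and integrated stress response 10 of 34 genes were higher than DMSO and 0 lower by edgeR (8 and 0 without TPCA-1+TNFα 2), where TNFα alone raised 5 and lowered 0 (8 and 2 with the replicate block). With the block 14 were higher than DMSO and 3 lower in TPCA-1+TNFα. Atf3, a stress transcription factor gene, stood at 179, 223, 194 and 219 CPM in DMSO, 193, 245, 241 and 258 CPM in TNFα and 351, 639, 404 and 713 CPM in TPCA-1+TNFα. TNFα alone had not passed (0.20 ± 0.18, adjusted p = 0.504), and TPCA-1+TNFα lay above both groups in every library (1.37 ± 0.18, adjusted p = 2.86e-05). Ppp1r15a, the phosphatase subunit gene that restores translation, went further than with TNFα (1.84 ± 0.21 against DMSO, 0.62 ± 0.20 against TNFα). Slc3a2, the heavy chain of amino acid transporters, kept its TNFα level (0.83 ± 0.13, 0.01 ± 0.13).

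Immediate-early and AP-1 genes were higher than DMSO in 8 of 19 cases and lower in 3, with or without TPCA-1+TNFα 2. The higher share was 42.1%, and the lower share, 15.8%, was about that over all genes tested (15.5%). The MAP kinase phosphatase genes Dusp1 and Dusp6 moved in opposite directions. Dusp1 stood at 52.02, 72.9, 59.95 and 63.2 CPM in DMSO, 75.3, 96.9, 113 and 125 CPM in TNFα and 176, 199, 259 and 189 CPM in TPCA-1+TNFα. Dusp6 stood at 36.8, 28.3, 38.02 and 34.3 CPM in DMSO, 20.4, 20.2, 23.02 and 26.04 CPM in TNFα and 5.62, 5.401, 9.55 and 5.05 CPM in TPCA-1+TNFα. In each gene the 3 groups were separate, with Dusp1 rising (1.73 ± 0.18, adjusted p = 1.84e-06) and Dusp6 falling (-2.41 ± 0.18, adjusted p = 6.67e-08). Maff, a small Maf factor gene, was TNFα-like (2.77 ± 0.30), and Junb rose by 1.36 ± 0.25. The other lower members were Nr4a1 (-2.26 ± 0.47) and Klf2 (-0.84 ± 0.26), whose call ended without TPCA-1+TNFα 3 or DMSO 3 (adjusted p up to 0.0697, reached without DMSO 3).

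Class IIa histone deacetylase and MEF2 genes were lower than DMSO in 3 of 10 cases and higher in 0 by edgeR (3 and 0 without TPCA-1+TNFα 2, 4 and 1 with the replicate block). Hdac9 (ENSMUSG00000004698, GRCm38 chromosome 12, 34047580 to 34917095) stood at 13.1, 8.77, 14.8 and 13.2 CPM in DMSO, 3.29, 4.02, 4.17 and 4.29 CPM in TNFα and 2.93, 3.24, 4.65 and 3.26 CPM in TPCA-1+TNFα. Both stimulated groups lay below DMSO and overlapped each other (-0.16 ± 0.19 against TNFα, interval -0.56 to 0.25), which makes the gene TNFα-like. The transcription factor gene Mef2c fell further than with TNFα (-1.66 ± 0.15 against DMSO, -0.53 ± 0.16 against TNFα). The third member, Mef2a, fell by 0.38 ± 0.12, a call that ended without DMSO 3 (adjusted p = 0.0591).

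**Figure D5:**
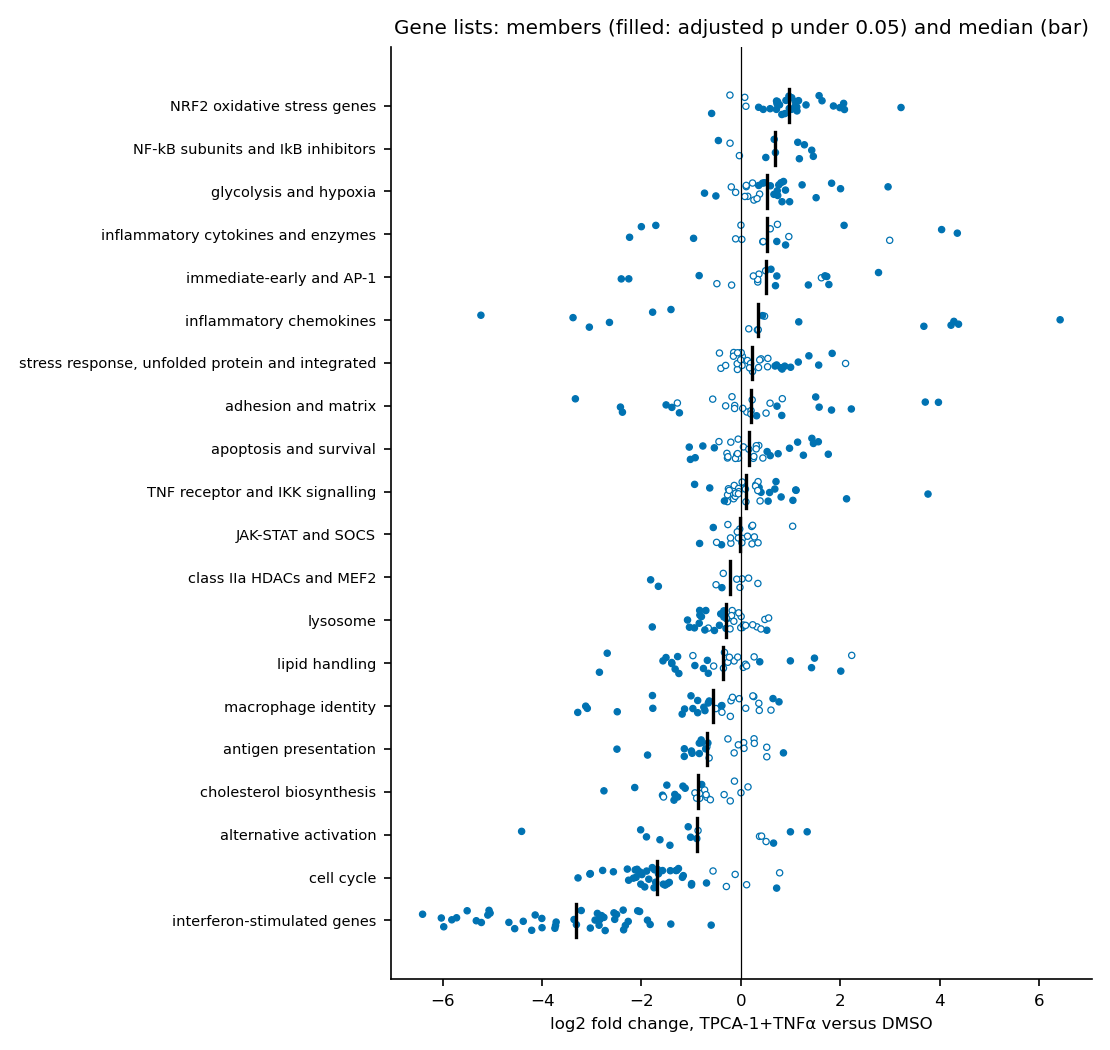
Log2 fold change of TPCA-1+TNFα from DMSO for the tested members of 20 gene lists, with 1 point per gene, filled where the adjusted p is under 0.05, and a bar at the median of the list. Interferon-stimulated genes (median -3.31) and cell cycle genes (median -1.70) lie to the left and NRF2 genes (median 0.97) to the right, while chemokines spread to both sides.

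Named TNFα-like genes beyond these lists covered surface, metabolic and trafficking genes. The membrane-cytoskeleton linker gene Ezr stood at 12.6, 22.8, 13.8 and 14.97 CPM in DMSO, 126, 152, 146 and 145 CPM in TNFα and 91.5, 135, 113 and 99.99 CPM in TPCA-1+TNFα. The receptor gene Treml4 (2.87 ± 0.32) and the desmosome gene Pkp2 (2.88 ± 0.33) also stayed high. On the falling side the endocytic adaptor gene Dab2 stood at 1319 ± 177 CPM in DMSO, 169 ± 19.6 CPM in TNFα and 164 ± 49.4 CPM in TPCA-1+TNFα (SD, n = 4). The ectonucleotidase gene Entpd1, which encodes CD39 (-3.23 ± 0.17), the ubiquitin ligase gene Rnf150 (-2.74 ± 0.15), the ribonuclease gene Rnase4 (-2.94 ± 0.23) and the glycosyltransferase gene Gcnt1 (-1.85 ± 0.11) stayed low. With the replicate block Ezr, Rnf150 and Gcnt1 differed from TNFα in the direction of DMSO (adjusted p = 0.0315, 0.0158 and 0.0263). Rnase4 then differed in the other direction (adjusted p = 0.0211).

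Within the TNFα-raised class partly back, the named genes with the largest TNFα changes included Susd2 (7.92 ± 1.45 with TNFα, 5.13 ± 1.47 with TPCA-1+TNFα), the alcohol dehydrogenase gene Adh7 (6.63 ± 0.60, 4.76 ± 0.61), the class I-like gene H2-M2 (6.12 ± 0.70, 3.44 ± 0.72) and the protease inhibitor gene Slpi (5.52 ± 0.41, 3.45 ± 0.42). Susd2 stood at 0.105, 0.0985, 0.0447 and 0.208 CPM in DMSO, at or under the floor of 3 counts or a little above it, and at 3.47, 0.540, 9.799 and 1.603 CPM in TPCA-1+TNFα, so its fold change is imprecise. The named TNFα-lowered genes, of the 65 that had returned, were Kctd12b (3.42 ± 0.27 against TNFα), Tlr9, the oxysterol receptor gene Gpr183 (1.61 ± 0.19), the sugar phosphate transporter gene Slc37a2 (1.37 ± 0.13) and Tmem86a (1.14 ± 0.18). Kctd12b stood at 15.5, 14.8, 20.6 and 11.1 CPM in DMSO, 1.93, 2.01, 2.63 and 1.16 CPM in TNFα and 29.3, 18.4, 17.8 and 18.2 CPM in TPCA-1+TNFα. Its TPCA-1+TNFα and DMSO ranges overlapped and every TNFα library lay below them. With the replicate block Kctd12b (0.45, adjusted p = 0.0407) and Tmem86a (-0.48, adjusted p = 0.0238) passed against DMSO, and so would not have returned. Tmem86a passed without TPCA-1+TNFα 2 (-0.55 ± 0.19, adjusted p = 0.0407) or 4, and Slc37a2 without TPCA-1+TNFα 4.

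Genes outside the TNFα change were called in TPCA-1+TNFα against both DMSO and TNFα in the same direction, but not in TNFα against DMSO. There were 453 higher and 478 lower, and 793 higher with the replicate block. Not being called does not show that TNFα left a gene unchanged. With TNFα alone Cd209g stood at 1.29 ± 0.70 and Map1a at 1.17 ± 0.50. With the block Cd209f, Cd209g, Map1a and Sema7a passed in TNFα against DMSO (adjusted p = 0.00153, 0.00061, 0.00547 and 0.0108), which takes them out of this group. The same holds for the lower genes Ifi213, Ifi206 and Ifit3b (adjusted p = 0.00317, 0.0138 and 0.0237). The higher group became 300 genes without TPCA-1+TNFα 2, 286 without TPCA-1+TNFα 4, 287 without TNFα 1 and 734 without TPCA-1+TNFα 1, and the lower group 718 without TPCA-1+TNFα 1. Among the higher genes the lectin genes Cd209f and Cd209g, the microtubule gene Map1a, the semaphorin gene Sema7a and the transcription factor gene Spib had the largest changes. Spib stood at 2.99, 7.09, 5.18 and 6.705 CPM in DMSO, 2.04, 6.52, 4.07 and 4.87 CPM in TNFα and 22.1, 50.5, 27.2 and 53.01 CPM in TPCA-1+TNFα. Sema7a stood at 2.94, 7.44, 4.15 and 6.03 CPM in DMSO, 3.12, 10.3, 6.798 and 8.01 CPM in TNFα and 22.2, 61.03, 30.98 and 40.96 CPM in TPCA-1+TNFα. In both genes TPCA-1+TNFα 2 was among the 2 highest and all 4 libraries exceeded every other (Spib 2.79 ± 0.36, adjusted p = 2.61e-05, Sema7a 2.90 ± 0.37, adjusted p = 2.29e-05). Without TPCA-1+TNFα 2 the changes were 2.63 ± 0.39, adjusted p = 0.000111 for Spib and 2.61 ± 0.37, adjusted p = 8.05e-05 for Sema7a.

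Cd209f stood at 0.945, 11.7, 5.67 and 3.01 CPM in DMSO, 3.41, 21.2, 9.23 and 8.54 CPM in TNFα and 16.95, 96.3, 33.8 and 59.1 CPM in TPCA-1+TNFα, with the highest level in replicate 2 of each group (3.25 ± 0.67, adjusted p = 0.00223). Map1a changed by 3.26 ± 0.49 and Cd209g by 3.52 ± 0.68. Lad1, the largest riser further than TNFα, stood at 0.0525, 1.18, 0.134 and 0.208 CPM in DMSO, 1.14, 5.93, 4.14 and 1.64 CPM in TNFα and 11.4, 63.2, 16.1 and 12.3 CPM in TPCA-1+TNFα. Its replicate 2 was again the highest of each group, and without TPCA-1+TNFα 2 the change from DMSO was 5.05 ± 0.83, adjusted p = 0.000121. The genes outside the TNFα change that were lower include 39 of the 45 interferon-stimulated genes, or 30 with the replicate block. The interferon-response motif was in the promoters of 64 of 370 of these lower genes (17.3%), and in 48 of 343 (13.99%) when listed interferon-stimulated genes were left out, beside 4.05% of all genes tested. The motif was chosen after the values were seen. The list does not hold every interferon-inducible gene: the lower genes Ifi206, Ifi213 and Ifit3b are not on it. The second share therefore does not describe genes free of interferon control.

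The inhibitor TMP195 gave a different state, by the direct test of TPCA-1+TNFα against TMP195+TNFα: 1595 genes were higher (12.6%) and 1652 lower (13.1%) with TPCA-1. All 45 interferon-stimulated genes were lower with TPCA-1, among them Irf7 (-5.57 ± 0.23, adjusted p = 1.87e-10) and Oas3 (-6.04 ± 0.17, adjusted p = 2.43e-12). Spib (3.79 ± 0.38, adjusted p = 2.91e-06) and Plin2 (1.84 ± 0.25, adjusted p = 5.29e-05) were higher with TPCA-1. For the next genes the difference between the inhibitors did not pass the test. Traf1 stood at 0.36 ± 0.15, adjusted p = 0.0993 (interval 0.03 to 0.68), Ptgs2 at 0.04 ± 0.23, adjusted p = 0.919, Icam1 at 0.47 ± 0.19, adjusted p = 0.0744 and Hdac9 at 0.35 ± 0.20, adjusted p = 0.2.

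Markers of other cell types and signs of RNA quality were set beside these results. Neutrophil markers summed to 39.2 to 77.7 CPM in DMSO, 127 to 161 in TNFα and 51.5 to 79.6 in TPCA-1+TNFα. Of the 11 neutrophil markers 2 could be tested, and S100a8 rose. The other, Csf3r, leaned lower and did not pass by edgeR (-0.60, adjusted p = 0.0652) except with the replicate block (-0.55, adjusted p = 0.0102). S100a9, Ly6g, Elane, Retnlg and Ngp were at 0 in all 16 libraries. S100a8 stood at 1.05, 2.27, 2.14 and 0.780 CPM in DMSO and 36.1, 40.1, 41.6 and 13.7 CPM in TPCA-1+TNFα, with replicate 4 the lowest of the latter. Of 3 testable lymphocyte markers Cd4 fell (-0.78 ± 0.16), and the lymphocyte markers summed to 75.1 to 122 CPM in DMSO and 61.5 to 116 in TPCA-1+TNFα. Dendritic cell markers had 0 of 2 called by edgeR without the replicate block (1 higher with it). They summed to 13.3 to 17.2 CPM in DMSO and 11.8 to 15.4 in TPCA-1+TNFα, with Cd209a at 0. The mast cell and basophil list had 1 testable marker, Il3ra (0.17 ± 0.34, adjusted p = 0.74), and summed to 7.997 to 14.6 and 8.56 to 21.6 CPM in these 2 groups, with Fcer1a and Mcpt8 at 0.

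Erythroid and megakaryocyte markers had 2 testable members, Ppbp, which rose (3.21 ± 0.43), and Pf4, which fell (-0.79 ± 0.20). They summed to 1134 to 1390.3 CPM in DMSO and 488 to 1089 in TPCA-1+TNFα, with Hbb-bs at 0. Stromal and endothelial markers had 1 testable member, Pecam1, which rose (1.41 ± 0.26), and summed to 8.08 to 11.0 and 15.9 to 40.1 CPM, with Col3a1 at 0. Of 5 testable osteoclast markers Dcstamp was higher (1.39 ± 0.52), a call that ended without TPCA-1+TNFα 1, 2 or 3 or DMSO 1, 2 or 3 (adjusted p up to 0.199, reached without TPCA-1+TNFα 3), and Atp6v0d2 was lower (-1.78 ± 0.31). The osteoclast markers summed to 153 to 209 CPM in DMSO and 102 to 121 in TPCA-1+TNFα, with Calcr at 0.

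Ribosomal protein genes were higher than DMSO in 13 of 20 cases and lower in 0 by edgeR (11 and 0 without TPCA-1+TNFα 2), and summed to 13400.0 to 13790.0 CPM in DMSO and 15396 to 18659 in TPCA-1+TNFα. The mitochondrial ribosomal RNA genes mt-Rnr1 (0.96 ± 0.25) and mt-Rnr2 (0.88 ± 0.24) were the 2 of 10 mitochondrially encoded genes that rose, and 0 fell by edgeR without the replicate block. With the block 2 were higher and 2 lower. The mitochondrially encoded genes summed to 41416 to 54403 CPM in DMSO and 29424 to 63413 in TPCA-1+TNFα. The part of these markers and of RNA quality in the changes above was not tested.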

How the data were processed

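Total RNA of 16 libraries was sequenced. Per the submitters' processing notes, STAR 2.6.1d was used with the mouse builds GRCm38 and mm10, and the authors deposited the read counts per gene that it writes, whole numbers with no normalization. The annotation release is not given in the sources used here. Counts on the opposite strand were used, since their total was 25.9 to 30.3 times that of the same strand. Of 54838 gene identifiers 54809 matched GENCODE M21, used for symbols and positions. Library totals were 7.49 to 31.6 in units of 1e6, and lines that name no gene were kept out: unmapped reads made up 4.003% to 44.0%, multimapped 6.69% to 12.0%, reads in no gene 1.69% to 4.22% and ambiguous reads 1.02% to 1.86%.

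A group mean was fitted for each treatment over the 16 libraries in edgeR 4.0.16 (R 4.3.3; TMM, filterByExpr, 12612 genes, 2-sided quasi-likelihood F test, Benjamini-Hochberg adjustment, threshold 0.05). The code was also run on simulated counts with known changes. These held no replicate effect, so that run cannot show how the fit deals with replicates that deviate together. CPM use TMM-scaled totals. Standard errors and 95% intervals come from the weights of that fit. Counting error was small beside the spread within groups (chi-square per gene 14.1 to 80.4). DESeq2 1.42.0, DESeq2 size factors, unstranded counts, no filter, other sets of libraries and the replicate number as a block were alternatives. Same-numbered deviations from the group means correlated at 0.436, 0.476, 0.330 and 0.681 between TNFα and DMSO, all over 0.1, which meets the criterion for pairing. Those between TPCA-1+TNFα and DMSO (0.367, 0.0196, 0.138 and 0.127) or TNFα (0.511, -0.0430, 0.250 and 0.155) do not, because of replicate 2. No label ties the numbers to a shared source.

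Genes were named by rule: the 10 largest changes each way with at least 5 CPM, no overlap of the groups and no clone or predicted symbol, up to 5 genes per class by the same symbol and level filters, up to 3 members of each list with the smallest adjusted p, and a fixed set of TNFα and NF-κB genes. Other list members were named after their values were seen. The comparison, the members and the lists, written from textbook knowledge, were chosen with earlier results of these data known. Promoters are from RefSeq (GRCm38.p6), which held 9289 of the 12612 genes tested. Some members of the lists are not reported here by name.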

Additional observations from a re-analysis of the deposited data

Results flagged for a closer look

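For 28 of 472 gene levels in a group of 4 libraries (5.93%), 1 library stood apart from the other 3 by a gap above Dixon's 95% critical value, a mark that chance gives to about 1 in 20 groups. The TPCA-1+TNFα libraries that stood low were S100a8 in TPCA-1+TNFα 4 at 13.7 CPM (others 36.1 to 41.6), Cxcl1 in TPCA-1+TNFα 4 at 6.07 CPM (others 47.9 to 55.7), Ccl7 in TPCA-1+TNFα 2 at 0.810 CPM (others 5.44 to 7.18), Slfn9 in TPCA-1+TNFα 2 at 0.540 CPM (others 3.08 to 3.66), Stat4 in TPCA-1+TNFα 2 at 2.56 CPM (others 4.60 to 5.08), Csf3r in TPCA-1+TNFα 1 at 28.6 CPM (others 37.1 to 37.7), Icam1 in TPCA-1+TNFα 1 at 444 CPM (others 483 to 488), Ccl6 in TPCA-1+TNFα 2 at 19.6 CPM (others 45.2 to 47.9) and Bcl3 in TPCA-1+TNFα 1 at 55.3 CPM (others 82.8 to 89.0). The TPCA-1+TNFα libraries that stood high were Cdkn2b in TPCA-1+TNFα 4 at 42.7 CPM (others 31.5 to 32.0), Kctd12b in TPCA-1+TNFα 1 at 29.3 CPM (others 17.8 to 18.4), Dusp6 in TPCA-1+TNFα 3 at 9.55 CPM (others 5.05 to 5.62) and Nos2 in TPCA-1+TNFα 3 at 0.297 CPM (others at 0). The DMSO libraries that stood low were Nceh1 in DMSO 4 at 245 CPM (others 307 to 321), Npc2 in DMSO 2 at 643 CPM (others 754 to 759), mt-Co1 in DMSO 4 at 21920.0 CPM (others 28440.0 to 29960.0), Mgst1 in DMSO 4 at 117 CPM (others 164 to 174), Lpl in DMSO 4 at 3992 CPM (others 5134 to 5250.0) and Casp4 in DMSO 4 at 52.5 CPM (others 70.5 to 74.6). The DMSO libraries that stood high were Nfkbia in DMSO 4 at 196 CPM (others 121 to 125), Fcgr1 in DMSO 1 at 308 CPM (others 229 to 235), Tnf in DMSO 4 at 309 CPM (others 219 to 223), Ikbkg in DMSO 2 at 67.3 CPM (others 49.6 to 51.2), Cxcl5 in DMSO 2 at 0.197 CPM (others at 0), Hmox1 in DMSO 2 at 1835 CPM (others 1049 to 1115), Cdkn1a in DMSO 4 at 638 CPM (others 429 to 458), Plin2 in DMSO 2 at 545 CPM (others 355 to 371) and Il4ra in DMSO 4 at 113 CPM (others 76.6 to 80.2).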

How the results depend on the processing

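The numbers of genes called higher and lower, with or without the 2-fold minimum, stayed within 1.5 times under every alternative run. On leaving out 1 library at a time the TNFα-lowered genes past the unstimulated level ran from 1 to 8 and those further than TNFα from 20 to 38. TNFα-raised genes further than TNFα ran from 19 to 35, and genes outside the TNFα change from 286 to 734 (higher) and from 347 to 718 (lower). DESeq2's Wald test placed 9 TNFα-lowered genes past the unstimulated level. With no fold minimum the TNFα-raised classes held 519 TNFα-like, 216 returned, 51 past, 80 further and 389 not placed genes, and the TNFα-lowered classes 558, 245, 21, 90 and 551. With the interval within 1.5-fold they held 42 TNFα-like, 17 returned and 306 not placed TNFα-raised genes, and 61, 18 and 509 TNFα-lowered genes. The NF-κB type motif with 3 free positions was in 6.63% of promoters tested, 9.72% of TNFα-raised and 10.7% of partly back ones. These shifts follow from the wider or narrower definition.

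The replicate numbers met the criterion for pairing TNFα with DMSO, but not TPCA-1+TNFα with either. In both cases only TPCA-1+TNFα 2 fell under 0.1, at 0.0196 with DMSO 2 and -0.0430 with TNFα 2. Among the DMSO libraries it correlated best with DMSO 4 (0.257). With the replicate block 2621 genes were higher and 2564 lower than DMSO, and 1999 higher and 1836 lower than TNFα. TNFα alone then raised 1901 and lowered 2133. Of the genes named in the text, the block added calls against DMSO for Adgre1 (0.38, adjusted p = 0.00103), Lyz2 (-0.54, adjusted p = 0.00193), Spi1 (0.25, adjusted p = 0.0237), Csf3r (-0.55, adjusted p = 0.0102), Kctd12b and Tmem86a, and ended that of Dcstamp (adjusted p = 0.0522). It called 19 of 24 cholesterol biosynthesis genes lower than DMSO. Against TNFα alone the block added calls for Nfkbia, Ezr, Rnf150, Gcnt1, Gss, Timp2, Rnase4, Cdkn2b, Cxcl1, Cdk1 and Il6, among others. Some class labels of named genes therefore depend on the fit. The block gave 137 TNFα-lowered genes partly back, 14 past the unstimulated level, 48 TNFα-raised genes further than TNFα and 793 higher genes outside the TNFα change. With the replicate block and TPCA-1+TNFα 2 left out, 168 TNFα-raised and 159 TNFα-lowered genes were partly back, 14 TNFα-lowered were past and 50 TNFα-raised further. The cause was not tested. Depth limits genes of a few counts, such as Nos2, Cxcl9, Il27 and Susd2, most of all in TPCA-1+TNFα 2.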
